A study of Mus musculus with 8 samples.

Results

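The cadherins and catenins of adherens junctions were examined in RNA-seq profiles of NMuMG cells, a line of mouse mammary epithelium. Members were taken by gene symbol from the deposited counts, and all 8 were found among the 37310 genes listed. They are the classical cadherins *Cdh1*, *Cdh2* and *Cdh3*, the catenins *Ctnnb1*, *Ctnnd1* and *Ctnna1*, vinculin (*Vcl*) and afadin, which is listed under its older symbol *Mllt4*. Of these, 7 passed the filter on low counts and are among the 13028 genes tested, while *Cdh3* did not pass.

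The libraries belong to 4 conditions with 2 libraries each. Cells of the control genotype were left untreated or received 10 ng/ml TGF-β1 for 2 h, and cells of the *Lnc-Nr6a1* knockout (KO) were left untreated or received the same treatment. The knockout is a CRISPR deletion at the promoter and first exon of this long non-coding RNA, made in cells that were then sorted singly and grown as clones. Which clones, and how many, gave the RNA is not given in the sources used here. The libraries of a condition are described as biological replicates without saying whether they came from separate cultures, so the p-values measure the spread between these libraries only, and this spread may be technical. The comparisons ask how the transcriptome responds early to TGF-β, and whether loss of *Lnc-Nr6a1* alters it before or after the treatment.

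In control cells, 7871090 and 7800602 reads were counted without and 11210495 and 9895118 with TGF-β. In the libraries labelled knockout, 4297832 and 7181737 were counted without and 12761749 and 13574397 with TGF-β. Levels are given in CPM, a gene's counts relative to the depth of its library in tested genes, after scaling with edgeR's TMM factors. A level of 3 counts, taken as the floor, lay between 0.238 CPM in the deepest library and 0.661 CPM in the shallowest, and covers counting error only.

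The targeted gene, listed as *Gm13507* (chromosome 2, 38678777 to 38707890, NCBIM37), had 3 and 14 counts in untreated control libraries and 11 and 7 in the untreated libraries labelled knockout. These ranges overlapped, with a log2 fold change of 0.61 (adjusted p = 0.785 by edgeR, SE 0.83) in the direction opposite to the label. After TGF-β it had 25 and 35 counts in control libraries and 0 in both libraries labelled knockout, at least 12.5-fold lower than in control cells when set against the mean floor of the 2 libraries (edgeR's adjusted p = 0.00984, and 0.0517 without treated knockout-labelled library 2). Against the untreated libraries labelled knockout this was at least 6.95-fold lower (edgeR's adjusted p = 0.0356), a call lost with the replicate block (0.0590) and without any one of the 4 libraries labelled knockout (0.0816 to 0.168). Without untreated knockout-labelled library 1 the bound was 3.85-fold. The label of the untreated libraries is thus not borne out by this gene, although *Cdh17*, *Cdh13*, *Ctnnal1*, *Ptprm* and *Fyn* (below) separated all 8 libraries by label. Directions between untreated genotypes follow the label. The wording "labelled knockout" is used for all 4 of these libraries.

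Adherens junctions join neighbouring epithelial cells. The extracellular domains of classical cadherins bind each other across the gap between cells, and their cytoplasmic tails hold p120-catenin and β-catenin, which in turn binds α-catenin. α-Catenin links the complex to actin filaments and recruits vinculin under tension, while afadin ties the nectins, a further class of adhesion molecules, to the same filaments. In mammary epithelium E-cadherin is the main cadherin, and prolonged TGF-β is known to shift such cells from E-cadherin to N-cadherin during epithelial-mesenchymal transition.

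Levels of different genes were compared per length, as CPM per kilobase of the union of a gene's exons. In untreated control cells *Ctnnb1* RNA was the most abundant at 517 ± 3.84 CPM per kb (SD, n = 2), followed by *Ctnna1* at 153 ± 9.68, *Ctnnd1* at 78.7 ± 9.89 and *Vcl* at 66.4 ± 4.56. *Cdh1* stood at 50.2 ± 11.4 CPM per kb, *Mllt4* at 35.8 ± 0.513 and *Cdh2* at 12.6 ± 0.0648. *Cdh3*, the P-cadherin gene, was last at 0.0153 ± 0.0216 CPM per kb, below the floor. The order of the means was the same in all 4 conditions, and library ranges of neighbours in that order overlapped only for *Vcl* and *Cdh1* in the treated libraries labelled knockout. There *Vcl* had 73.8 and 108.7 CPM per kb and *Cdh1* 72.9 and 87.4. In every library the transcript of the catenin that binds both partners therefore exceeded that of either cadherin, and E-cadherin RNA exceeded N-cadherin RNA.

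**Figure D1:**
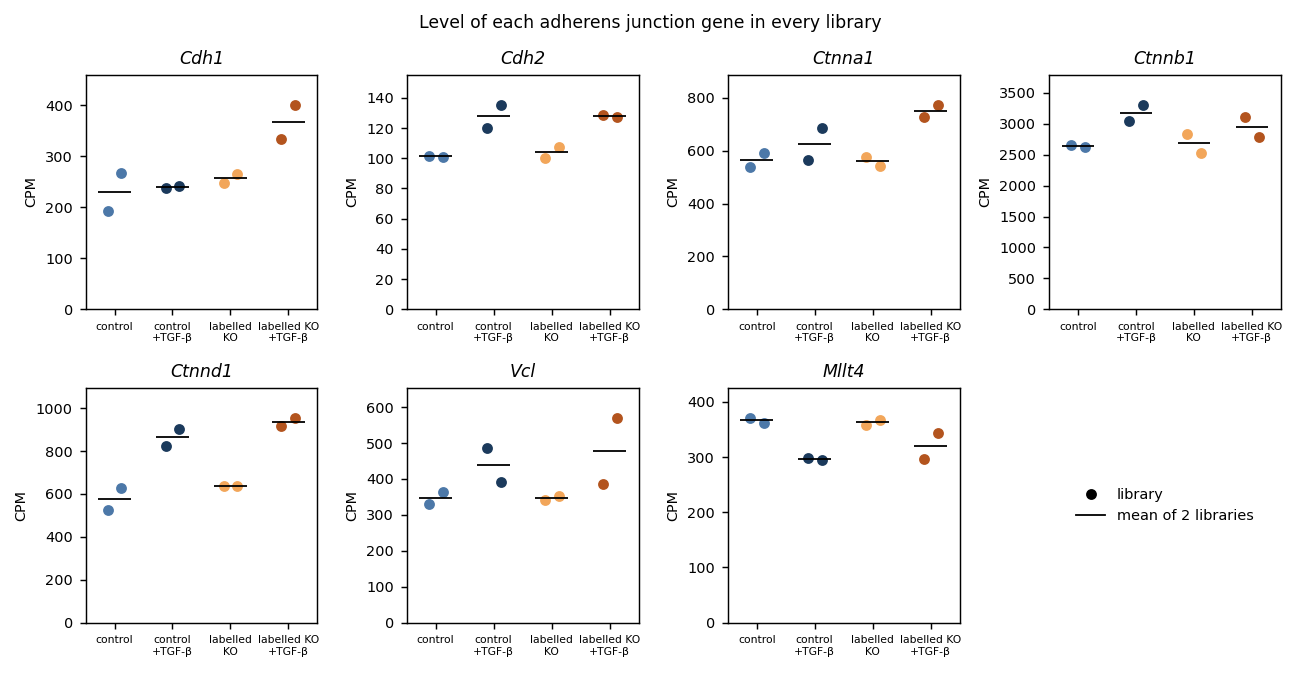
Level of the 7 tested adherens junction genes in CPM (vertical axis, starting at 0, a scale for each gene) by condition (horizontal axis). Points are single libraries and lines are means of 2 libraries. The treated libraries labelled knockout lie highest for *Cdh1*, at 333 and 399.9 CPM, and both treated conditions lie above both untreated ones for *Ctnnd1*.

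Among the 7 tested members, *Cdh1* was called between the treated genotypes and *Ctnnd1* after TGF-β in both genotypes, each of them higher, while no other member was called in any comparison. A gene was called at an adjusted p below 0.05 in edgeR's quasi-likelihood test and an absolute log2 fold change above 0.5. Each condition enters 2 of the 4 pairwise comparisons, so these share libraries and are not independent. RNA of whole cultures was measured, in which fewer cells of a kind and less RNA per cell cannot be told apart.

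Between untreated genotypes edgeR called 0 of 7 members higher, against 1.03% of all tested genes, and 0 lower, against 0.798%. No member there had an unadjusted p below 0.05 in edgeR (0 of 7), against 1936 of all 13028 genes. DESeq2 called 0 members, against 428 genes. The libraries of the groups did not overlap for 1 member, against 51.9% of all genes. The median log2 fold change of the members was 0.03 and that of all genes 0.02.

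Between treated genotypes 1 member was called higher, against 8.47% of all genes, and 0 lower, against 6.57%. By DESeq2 1 member was called, against 2172 of all 13028 genes. In edgeR 1 member had an unadjusted p below 0.05, against 4086 genes. Libraries did not overlap for 3 of the 7 members, against 55.8% of all genes, and the members' median was 0.11 where that of all genes was -0.01.

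After TGF-β in control cells 1 member was called higher, against 4.69% of all genes, and 0 lower, against 4.47%. In edgeR 3 members had an unadjusted p below 0.05, against 3491 of all 13028 genes. DESeq2 called 1 member, against 1479 genes. Libraries did not overlap for 5 members, against 53.7% of all genes, and the members' median was 0.27 where that of all genes was 0.02.

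In the libraries labelled knockout TGF-β gave 1 member called higher, against 4.25% of all genes, and 0 called lower, against 2.57%. Here 4 members had an unadjusted p below 0.05 in edgeR, against 2956 of all 13028 genes. DESeq2 called 1 member, against 1237 genes. Libraries did not overlap for 6 members, against 56.6% of all genes. The members' median was 0.42 and that of all genes 0.00.

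Whether the response to TGF-β differed between genotypes was tested as an interaction. By adjusted p, edgeR called 0 members and 0.00% of all genes, with 0 members and 1134 of all 13028 genes at an unadjusted p below 0.05, and DESeq2 called 0 members and 30 genes. A call in 1 genotype or treatment and not in the other is therefore not shown to be a difference between them for any member. With 1 call at most in a comparison, the members' counts of calls lie near the shares of all genes.

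**Figure D2:**
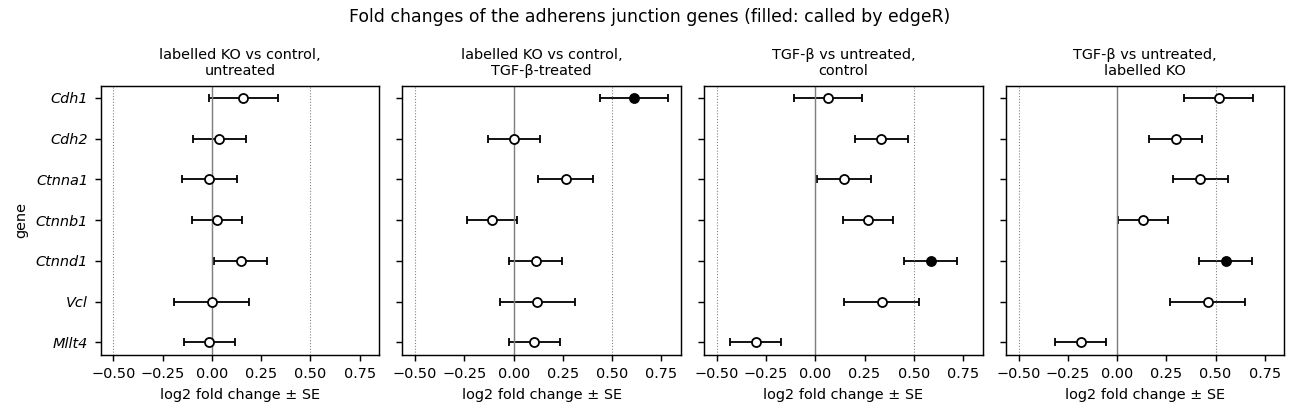
Log2 fold change (horizontal axis) of the 7 tested members (vertical axis) in the 4 pairwise comparisons, with bars of 1 SE. Filled points were called by edgeR, open points were not, and dotted lines mark an absolute log2 fold change of 0.5. Filled are *Cdh1* between treated genotypes, at 0.61, and *Ctnnd1* after TGF-β, at 0.59 and 0.55.

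*Cdh1* (ENSMUSG00000000303.6) encodes E-cadherin and lies on the plus strand of chromosome 8, 109127251 to 109194146. It was at 193 and 267 CPM in untreated control libraries, 238 and 242 in treated control libraries, 247 and 266 in untreated libraries labelled knockout and 333 and 399.9 in treated libraries labelled knockout. Both treated libraries labelled knockout lay above all 6 other libraries, whose ranges overlapped one another apart from the treated control and the untreated libraries labelled knockout. Its mean rose from 239.9 ± 3.25 CPM (SD, n = 2) in treated control cells to 367 ± 47.1 CPM in the treated libraries labelled knockout. This was a log2 fold change of 0.61 (adjusted p = 0.0433 by edgeR, SE 0.17), higher in 2 of 2 libraries. Between the untreated genotypes the log2 fold change of *Cdh1* was 0.16 (adjusted p = 0.720 by edgeR, SE 0.17), with overlapping libraries.

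The same treated libraries labelled knockout, compared with the untreated ones, gave *Cdh1* a log2 fold change of 0.52 (adjusted p = 0.117 by edgeR, SE 0.17), which was not called although the libraries did not overlap. In control cells the log2 fold change of *Cdh1* after TGF-β was 0.06 (adjusted p = 0.853 by edgeR, SE 0.17). The difference between these responses, 0.45 (adjusted p = 0.636 by edgeR, SE 0.25), did not pass the test. This difference lay between 0.20 and 0.67 in its 12 alternatives. The call between treated genotypes narrowly passed its threshold. It was lost when only the 4 treated libraries were fitted (adjusted p = 0.102, edgeR). It was also lost without either treated control library (0.0779 and 0.0982), either untreated library labelled knockout (0.0796 and 0.0794) or either treated one (0.0555 and 0.236). The log2 fold change lay between 0.48 and 0.74 in the 13 alternatives.

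*Cdh2* (ENSMUSG00000024304.8) encodes N-cadherin, the cadherin of neural and mesenchymal cells, and lies on the minus strand of chromosome 18, 16747386 to 16967755. Its level was 102 and 101 CPM in untreated control libraries and 120.2 and 135 CPM in treated ones. In the libraries labelled knockout it was 100.3 and 108 CPM without and 128 and 128 CPM with TGF-β. All 4 treated libraries were above all 4 untreated libraries, and the genotypes overlapped under both conditions. After TGF-β the log2 fold change was 0.33 (adjusted p = 0.149 by edgeR, SE 0.13) in control cells. It was 0.30 (adjusted p = 0.224 by edgeR, SE 0.13) in the libraries labelled knockout, so neither was called. Between genotypes it was 0.04 without and 0.00 with TGF-β, each below its SE of 0.14 and 0.13.

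The ratio of *Cdh1* to *Cdh2* per length, taken within each library, was 3.34 and 4.66 in untreated control cells and 3.49 and 3.16 in treated control cells. It was 4.34 and 4.36 in untreated and 4.58 and 5.53 in treated libraries labelled knockout. Treated libraries labelled knockout were above treated control libraries, while the untreated control libraries lay on both sides of the untreated libraries labelled knockout. E-cadherin RNA was thus several-fold above N-cadherin RNA per length in every library at 2 h.

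*Cdh3* (ENSMUSG00000061048.6), the gene of P-cadherin, lies next to *Cdh1* on the same strand of chromosome 8, at 109034791 to 109080808, with the small gene *Gm10073* between them. P-cadherin is known as a cadherin of basal mammary cells. Over all 8 libraries 9 of its reads were counted, 0 and 1 in untreated control cells, 2 and 0 in treated control cells, 3 and 0 in untreated and 1 and 2 in treated libraries labelled knockout. No library exceeded the floor of 3 counts, so no difference between conditions was detectable at this depth.

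*Ctnnb1* (ENSMUSG00000006932.9, chromosome 9, plus strand, 120838334 to 120869625) encodes β-catenin, which binds the cadherin tail and, when free and stable, acts in the nucleus in Wnt signalling. It was at 2652 and 2624 CPM in untreated and 3054 and 3302 CPM in treated control libraries. In libraries labelled knockout it was at 2841 and 2534 CPM without and 3106 and 2779 CPM with TGF-β. The control libraries were separated by treatment, whereas those labelled knockout overlapped. The log2 fold change after TGF-β was 0.27 (adjusted p = 0.208 by edgeR, SE 0.13) in control cells and 0.13 (adjusted p = 0.590 by edgeR, SE 0.13) in the libraries labelled knockout. Between genotypes it was 0.03 (SE 0.13) without and -0.11 (SE 0.13) with TGF-β, the latter the only value below 0 among the members in that comparison.

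*Ctnnd1* (ENSMUSG00000034101.8, chromosome 2, minus strand, 84440228 to 84490922) encodes p120-catenin, which binds the membrane-near part of the cadherin tail and keeps the cadherin from being taken up. Its level was 525 and 627 CPM in untreated and 824 and 905 CPM in treated control libraries. It was 638 and 636 CPM in untreated and 915 and 952 CPM in treated libraries labelled knockout. Every treated library exceeded every untreated one, and the libraries labelled knockout lay above the control libraries of the same treatment by a margin smaller than the gap between control replicates. TGF-β raised *Ctnnd1* from 576 ± 72.4 CPM to 864 ± 57.2 CPM (SD, n = 2) in control cells. This was a log2 fold change of 0.59 (adjusted p = 0.0295 by edgeR, SE 0.13), higher in 2 of 2 libraries.

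In the libraries labelled knockout the level of *Ctnnd1* rose from 637 ± 1.09 CPM to 934 ± 26.1 CPM (SD, n = 2), a log2 fold change of 0.55 (adjusted p = 0.0411 by edgeR, SE 0.13), higher in 2 of 2 libraries. The response differed between genotypes by -0.03 (adjusted p = 0.981 by edgeR, SE 0.19). Between genotypes the log2 fold change was 0.15 (adjusted p = 0.661 by edgeR, SE 0.13) without and 0.11 (adjusted p = 0.612 by edgeR, SE 0.13) with TGF-β. Over all alternatives the log2 fold change after TGF-β lay between 0.46 and 0.72 in control cells and between 0.53 and 0.61 in the libraries labelled knockout. In control cells the call was lost without either untreated control library (adjusted p = 0.217 and 0.0682, edgeR), without treated control library 2 (0.0856) or without either untreated library labelled knockout (0.0659 and 0.0657), and with only the 4 control libraries fitted (0.115). For the libraries labelled knockout it was lost without either of the untreated (edgeR's adjusted p = 0.212 and 0.225) or treated (0.102 and 0.209) ones and without either untreated control library (0.0548 and 0.0542).

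*Ctnna1* (ENSMUSG00000037815.6, chromosome 18, plus strand, 35278542 to 35414427) encodes αE-catenin, the link between β-catenin and actin. It was at 539 and 589.9 CPM in untreated and 564 and 685 CPM in treated control libraries, and at 576 and 543 CPM in untreated and 726 and 773 CPM in treated libraries labelled knockout. As with *Cdh1*, both treated libraries labelled knockout were above all other libraries. Their log2 fold change against the untreated ones was 0.42 (adjusted p = 0.110 by edgeR, SE 0.14), and against treated control cells 0.26 (adjusted p = 0.229 by edgeR, SE 0.14), neither of them called. In control cells the log2 fold change after TGF-β was 0.15 (SE 0.14), with overlapping libraries, and the difference between the responses was 0.28 (adjusted p = 0.732 by edgeR, SE 0.20). Without treated control library 1 or 2 the value between treated genotypes was 0.13 or 0.42 and the difference between the responses 0.16 or 0.46, none of them called.

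*Vcl* (ENSMUSG00000021823.8, chromosome 14, plus strand, 21748655 to 21852895) encodes vinculin, which strengthens the hold of α-catenin on actin and also serves focal adhesions. Its level was 331 and 364 CPM in untreated and 485 and 393 CPM in treated control libraries. It was 343 and 352 CPM in untreated and 386 and 569 CPM in treated libraries labelled knockout. All treated libraries lay above all untreated ones, but replicates were farther apart with TGF-β than without. The log2 fold change after TGF-β was 0.34 (adjusted p = 0.287 by edgeR, SE 0.19) in control cells and 0.46 (adjusted p = 0.192 by edgeR, SE 0.19) in the libraries labelled knockout. Without treated knockout-labelled library 2 the latter was 0.16, and without the other treated knockout-labelled library 0.72. Of the exons of *Vcl*, 2087 bases are shared with *Ap3m1* on the opposite strand, and whether the counting used the strand is not given in the sources used here. Over all libraries *Ap3m1* had 4558 counts against 30698 of *Vcl*, and the part of *Ap3m1* in the counts of *Vcl* was not tested.

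*Mllt4* (ENSMUSG00000068036.7, chromosome 17, plus strand, 13897546 to 14043157) encodes afadin. It was the only tested member with a log2 fold change below 0 after TGF-β, in both genotypes. Untreated libraries had 369.9 and 363 CPM for control cells, while 357 and 368 CPM were found where the label is knockout. Treated libraries had 299 and 295 CPM for control cells, against 296 and 343 CPM where the label is knockout. All treated libraries were below all untreated ones. The log2 fold change was -0.30 (adjusted p = 0.169 by edgeR, SE 0.13) in control cells and -0.18 (adjusted p = 0.446 by edgeR, SE 0.13) in the libraries labelled knockout, so that neither passed the test. *Mllt4* shares 221 exon bases with *Tcte2*, and *Ctnnb1* shares 240 with *Ulk4*, both on the opposite strand, with 419 and 378 counts of these partners over all libraries against 24349 and 212310 of the members.

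How the members moved together was described by Pearson correlations of log2 CPM over the 8 libraries, which share conditions and depths. *Cdh2* and *Ctnnd1* had r = 0.94 and *Ctnnb1* and *Mllt4* r = -0.94, the extremes of the 21 pairs of tested members. *Cdh1* was closest to *Ctnna1* (r = 0.81). Outside the members, among 9493 genes with a mean of at least 10 CPM, the genes most like *Cdh1* in this measure were *Heatr5a* and *Dnmbp* (both r = 0.98), and those most like *Cdh2* were *Pkp2* and *Ube2f* (both r = 0.99). For *Ctnnd1* they were *Kdm5b* and *N4bp1*, for *Vcl* *Zc3h12a* and *Gramd1b* (r = 0.99 for all of these). For *Ctnnb1* they were *Sec23a* (r = 0.99) and *Pafah1b2* (r = 0.98), for *Ctnna1* *Dnttip1* and *Vps4b* (both r = 0.96), and for *Mllt4* *Rbm47* (r = 0.99) and *Larp1* (r = 0.98).

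Further genes of the junction were read from 7 lists with 91 genes, of which 67 were tested. Of all genes, edgeR called 1.03% higher and 0.798% lower between untreated genotypes, and 8.47% and 6.57% between treated ones. After TGF-β it called 4.69% and 4.47% in control cells, and 4.25% and 2.57% where labelled knockout. At an unadjusted p below 0.05 there were 1936, 4086, 3491 and 2956 of the 13028 genes in these comparisons. The first holds the other 20 genes with a *Cdh* number, of which 5 were tested and 10 had no counts in any library. In it *Cdh17* and *Cdh13* were called higher in the libraries labelled knockout with and without TGF-β, and *Cdh6* higher after TGF-β in both genotypes, with 0 called lower. The list's median log2 fold change was 0.84 between untreated and 0.57 between treated genotypes, where all genes had 0.02 and -0.01. With 5 tested genes these medians are the values of *Cdh16* (adjusted p = 0.0905 by edgeR) and *Cdh24* (adjusted p = 0.271 by edgeR), neither of them called. Between treated genotypes *Cdh16* was at -0.19, and *Cdh6* was at 0.09 without and 0.17 with TGF-β. The list's median was 0.08 after TGF-β in control cells and -0.20 where labelled knockout, where all genes had 0.02 and 0.00.

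*Cdh6*, a type II cadherin of kidney and other developing epithelia, was at 165 and 202 CPM in untreated and 629.5 and 700.3 CPM in treated control libraries. In the libraries labelled knockout it was at 192 and 198 CPM without and 692 and 809 CPM with TGF-β. The treated libraries stood far above the untreated ones. Its log2 fold changes were 1.86 (adjusted p = 0.000507 by edgeR, SE 0.15) in control cells and 1.94 (adjusted p = 0.000313 by edgeR, SE 0.15) in the libraries labelled knockout, higher in 2 of 2 libraries each.

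*Cdh17*, the liver-intestine cadherin, was at 53.9 and 58.7 CPM in untreated and 57.9 and 61.4 CPM in treated control libraries, and at 139.5 and 128 CPM in untreated and 126 and 107 CPM in treated libraries labelled knockout. *Cdh13*, a cadherin held in the membrane by a lipid anchor and lacking the tail that binds catenins, was at 35.0 and 32.3 and then 27.0 and 24.0 CPM in control libraries without and with TGF-β. Where labelled knockout, its libraries had 58.2 and 68.0 and then 64.96 and 73.5 CPM. Both genes separated the libraries by genotype label under each condition. The log2 fold changes of *Cdh17* were 1.25 (adjusted p = 0.00427 by edgeR, SE 0.15) without and 0.97 (adjusted p = 0.00471 by edgeR, SE 0.15) with TGF-β. Those of *Cdh13* were 0.91 (adjusted p = 0.0273 by edgeR, SE 0.16) and 1.44 (adjusted p = 0.00140 by edgeR, SE 0.16). The untreated call of *Cdh13* was lost without any one of the 4 untreated libraries (edgeR's adjusted p from 0.116 to 0.258) and with the replicate block (0.0563). That of *Cdh17* was lost without either untreated control library or without untreated knockout-labelled library 1 (0.0541 to 0.0650).

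Of 7 relatives of the catenins 4 were tested. *Jup* encodes plakoglobin, a relative of β-catenin found in both adherens junctions and desmosomes. It was at 267 and 247 CPM in untreated and 268 and 256 CPM in treated control libraries, at 327 and 327 CPM in untreated and at 584 and 657 CPM in treated libraries labelled knockout. The treated libraries labelled knockout were highest and the untreated ones with the same label next, with no overlap. *Jup* was called higher there than in treated control cells, by 1.24 (adjusted p = 0.00101 by edgeR, SE 0.13), and than in untreated libraries labelled knockout, by 0.92 (adjusted p = 0.00395 by edgeR, SE 0.13). The latter call was lost without either untreated library labelled knockout (edgeR's adjusted p = 0.0599 and 0.0635). The difference between the responses was 0.90 (adjusted p = 0.409 by edgeR, SE 0.18), while DESeq2 called it (0.91, adjusted p = 0.0278).

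*Ctnnal1*, which encodes α-catulin, was at 15.0 and 18.6 CPM in untreated and 16.6 and 18.3 CPM in treated control libraries. In those labelled knockout it was at 4.63 and 3.72 CPM without and 4.40 and 5.80 CPM with TGF-β. It was called lower in both comparisons of genotypes, by -2.02 (adjusted p = 0.0102 by edgeR, SE 0.29) without and -1.77 (adjusted p = 0.00401 by edgeR, SE 0.26) with TGF-β. The untreated call was lost without untreated control library 2 or either untreated library labelled knockout (edgeR's adjusted p from 0.0693 to 0.137). The list gave 0 calls after TGF-β in control cells by edgeR, 0 at an unadjusted p below 0.05 and 0 by DESeq2. Its median was 0.13 between untreated and 0.28 between treated genotypes, and 0.00 and 0.15 after TGF-β in control cells and where labelled knockout.

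Of 19 linkers between junctions and actin 18 were tested. Between treated genotypes *Tln1*, *Tln2* and *Diap1* were called higher and *Wtip* lower in the libraries labelled knockout. That is 3 of 18 called higher, against 8.47% of all genes, and 1 lower, against 6.57%. The median of the list was 0.25 where that of all genes was -0.01. *Tln1*, which encodes talin 1 and links integrins to actin, was at 277 and 311 CPM in untreated and 212 and 199 CPM in treated control libraries, and at 289 and 318 CPM in untreated and 379 and 464 CPM in treated libraries labelled knockout. Control libraries were lower with TGF-β and those labelled knockout higher, without overlap. The treated genotypes differed by 1.04 (adjusted p = 0.00370 by edgeR, SE 0.15), and *Tln2* and the formin gene *Diap1* by 0.76 (adjusted p = 0.0138 by edgeR, SE 0.16) and 0.73 (adjusted p = 0.0149 by edgeR, SE 0.15). The latter calls were lost without treated knockout-labelled library 2 (edgeR's adjusted p = 0.0691 and 0.0889) and with only the 4 treated libraries fitted (0.0739 and 0.0759). After TGF-β in control cells edgeR did not call *Tln1* (-0.51, adjusted p = 0.0608) or *Diap1* (-0.52, adjusted p = 0.0639), while DESeq2 called both lower (adjusted p = 0.0320 and 0.0446) and 4 linkers in all. For *Tln1* the difference between the responses to TGF-β was 0.99 (adjusted p = 0.430 by edgeR, SE 0.21), and DESeq2 called it (1.00, adjusted p = 0.0286).

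*Wtip*, of the Ajuba family of LIM proteins, had 2 counts in the treated libraries labelled knockout together, 76 in treated control libraries and 26 in untreated libraries labelled knockout. Scaled for depth, it was 46.9-fold lower than in treated control cells (95% exact interval for counting error 12.6 to 395) and 26.8-fold lower than in the untreated libraries with the same label (6.71 to 233). The first ratio was 24.99-fold without treated control library 1 (6.03 to 221). The other was 14.9-fold without untreated knockout-labelled library 1 (3.08 to 141) and 46.6-fold without untreated knockout-labelled library 2 (11.1 to 416). Both differences were called (edgeR's adjusted p = 0.00731 and 0.0243). The first call was lost without treated knockout-labelled library 2 (edgeR's adjusted p = 0.0518), the other without untreated knockout-labelled library 1 or either treated library labelled knockout (0.0746 to 0.148).

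*Lima1*, which encodes the α-catenin partner EPLIN, was at 154 and 177 CPM in untreated and 97.4 and 117 CPM in treated control libraries, which did not overlap. After TGF-β it was called lower in control cells by -0.63 (adjusted p = 0.0321 by edgeR, SE 0.15). For *Lima1* the call was lost without any one of the 4 untreated libraries or treated control library 1 (edgeR's adjusted p from 0.0679 to 0.176), and with the 4 control libraries alone (0.0983). Between untreated genotypes edgeR called 0 of the 18 linkers, 1 had an unadjusted p below 0.05 and DESeq2 called 0.

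Of 8 genes of the nectin and afadin arm 7 were tested, and the list had 0 calls between untreated genotypes and after TGF-β in either genotype by edgeR and by DESeq2, with 1, 2 and 2 at an unadjusted p below 0.05. Between treated genotypes *Ssx2ip*, which encodes the afadin partner ADIP, was called lower and the polarity gene *Pard3* higher. There 4 of the 7 had an unadjusted p below 0.05 in edgeR, and the list's median was -0.43 where all genes had -0.01. The median was -0.15 between untreated genotypes, and -0.04 and -0.01 after TGF-β in control cells and where labelled knockout. *Ssx2ip* had 27.4 and 29.9 CPM in treated control libraries and 17.0 and 17.7 CPM in those labelled knockout, so that the log2 fold change was -0.72 (adjusted p = 0.0235 by edgeR, SE 0.17). *Pard3* had 56.2 and 53.7 against 76.3 and 94.9 CPM, a log2 fold change of 0.64 (adjusted p = 0.0274 by edgeR, SE 0.16). The call of *Ssx2ip* was lost without treated control library 2 or either treated library labelled knockout (edgeR's adjusted p from 0.0732 to 0.115). That of *Pard3* was lost without any untreated library, treated control library 2 or treated knockout-labelled library 2 (0.0505 to 0.189), and both with only the 4 treated libraries fitted (0.108 and 0.111).

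All 17 regulators of junction turnover were tested. *Ptprm*, a receptor phosphatase that binds cadherin complexes, had 3.74 and 2.32 CPM in untreated and 2.999 and 4.55 CPM in treated control libraries and 0 counts in all 4 libraries labelled knockout. Set against the mean floor of 3 counts it was at least 5.72-fold lower there without and at least 15.6-fold lower with TGF-β, and was called in both comparisons (edgeR's adjusted p = 0.0338 and 0.00460). *Fyn*, a Src family kinase that phosphorylates junction proteins, had 1.21 and 0.732 and then 2.62 and 2.54 CPM in control libraries without and with TGF-β, and 0 counts in all libraries labelled knockout. It was called lower between treated genotypes (edgeR's adjusted p = 0.00641), at least 10.7-fold. The untreated call of *Ptprm* was lost without any one of the 4 untreated libraries (edgeR's adjusted p from 0.122 to 0.205) and with the replicate block (0.0810).

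*Iqgap1*, a scaffold that binds E-cadherin and β-catenin, was called higher after TGF-β in both genotypes. It was at 794 and 802 CPM before and 1179.5 and 1373 CPM after TGF-β in control libraries, and at 722 and 700.0 CPM before and 1232 and 1297 CPM after it in those labelled knockout. Its log2 fold changes were 0.68 (adjusted p = 0.0144 by edgeR, SE 0.13) and 0.83 (adjusted p = 0.00584 by edgeR, SE 0.13). Without either untreated library of the genotype the call of *Iqgap1* was lost in control cells (edgeR's adjusted p = 0.127 and 0.0854) and in the libraries labelled knockout (0.0716 and 0.0887), there also without treated library 2 (0.0504), and in control cells with the 4 control libraries alone (0.0806). The list's median was 0.29 after TGF-β in control cells and 0.26 where labelled knockout, and -0.04 and -0.00 between untreated and treated genotypes. With *Ptprm* and *Fyn* at their bounds between genotypes, and left out after TGF-β in the libraries labelled knockout, where both were at 0, these medians were the same to 2 decimals.

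The complex that marks free β-catenin for destruction, with its partners, gave 10 tested genes. *Axin2*, a scaffold of that complex and a known target of Wnt signalling, had 5.53 and 2.33 CPM in treated control libraries and 0.734 and 1.11 CPM in treated libraries labelled knockout, where it was called lower by -2.08 (adjusted p = 0.0282 by edgeR, SE 0.52). *Fbxw11*, a ubiquitin ligase subunit that recognises β-catenin, was called higher after TGF-β in the libraries labelled knockout by 0.59 (adjusted p = 0.0337 by edgeR, SE 0.14). In control cells its log2 fold change was 0.50 (adjusted p = 0.0508 by edgeR, SE 0.14). The call of *Axin2* was lost without either untreated control library, treated control library 1 or either treated library labelled knockout (edgeR's adjusted p from 0.0521 to 0.123), with the replicate block (0.0502) and with only the 4 treated libraries (0.106). Without treated control library 1 its log2 fold change was -1.32. That of *Fbxw11* was lost without any untreated library or treated knockout-labelled library 2 (0.0667 to 0.201) and with the replicate block (0.0578). Between untreated genotypes and after TGF-β in control cells edgeR and DESeq2 called 0 of the 10, with 1 each at an unadjusted p below 0.05.

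Repressors known to act on *Cdh1* closed the lists, with 6 of 10 tested. *Snai1*, the gene of Snail, was at 0.724 and 0.732 CPM in untreated and 15.3 and 12.5 CPM in treated control libraries, and at 1.54 and 1.46 CPM in untreated and 26.1 and 21.9 CPM in treated libraries labelled knockout. It was called higher after TGF-β by 4.23 (adjusted p = 0.000416 by edgeR, SE 0.32) in control cells and 3.99 (adjusted p = 0.000313 by edgeR, SE 0.30) in the libraries labelled knockout. *Zeb2* was called higher too, by 1.05 (adjusted p = 0.00778 by edgeR, SE 0.17) and 1.17 (adjusted p = 0.00540 by edgeR, SE 0.18), and *Zeb1* in control cells by 0.88 (adjusted p = 0.0250 by edgeR, SE 0.19). In the libraries labelled knockout *Zeb1* had a log2 fold change of 0.70 (adjusted p = 0.0616 by edgeR, SE 0.19), which DESeq2 called (0.71, adjusted p = 0.0299). Between treated genotypes *Snai1* was called higher in the libraries labelled knockout by 0.79 (adjusted p = 0.0479 by edgeR, SE 0.23), in the same libraries in which *Cdh1* was higher.

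This last call of *Snai1* was lost by DESeq2 (adjusted p = 0.0914), with the replicate block (edgeR's adjusted p = 0.0623), with only the treated libraries (0.117), and without any one library other than treated control library 1 (0.0709 to 0.226). The calls of *Zeb2* were lost without either untreated library of the genotype concerned (edgeR's adjusted p = 0.0891 and 0.0695 in control cells, 0.0628 and 0.0777 where labelled knockout), and that of *Zeb1* without any untreated library (0.0527 to 0.182). Between untreated genotypes edgeR and DESeq2 called 0 of the 6, with 0 at an unadjusted p below 0.05. The median of the list was 0.46 after TGF-β in control cells and 0.50 where labelled knockout, where all genes had 0.02 and 0.00.

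In the interaction edgeR called 0 genes of any of the 7 lists. At an unadjusted p below 0.05 there were 2 other cadherins, 1 catenin relative, 3 actin linkers and 2 genes of the nectin list, and 0 in each of the lists of turnover regulators, the destruction complex and repressors. By DESeq2 1 catenin relative (*Jup*) and 1 actin linker (*Tln1*) were called.

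RefSeq promoter windows (GRCm38.p6), from 250 bases before to 50 after a start, were matched to 4 of the 8 members by symbol, *Ctnnb1*, *Ctnnd1*, *Vcl* and *Mllt4* (as *Afdn*), with 6 windows in all. *Cdh1*, *Cdh2*, *Cdh3* and *Ctnna1* had no entry. The E-box CAGGTG or its reverse complement CACCTG, letters bound by Snail and ZEB factors, was in 0 of the 6 windows and in 20.2% of all 32851 windows of that length. Both windows of *Ctnnd1* are shown without their last 50 bases, since it was the only member called after TGF-β in both genotypes. Capitals mark CAGAC or its reverse complement GTCTG, letters known to be bound by SMAD proteins, which were chosen for this search after the values were seen. They occurred in 2 places in the upstream window and in 0 in the other, and 42.2% of all windows hold them in the 250 bases before the start. Of the 6 member windows 2 hold them, the other being a window of *Ctnnb1*, which was not called, with 1 match. The match describes the letters only. Both runs are from the minus strand of chromosome 2, 5′ to 3′, at 84658978 to 84659227 and 84650741 to 84650990.
*Ctnnd1*, upstream start: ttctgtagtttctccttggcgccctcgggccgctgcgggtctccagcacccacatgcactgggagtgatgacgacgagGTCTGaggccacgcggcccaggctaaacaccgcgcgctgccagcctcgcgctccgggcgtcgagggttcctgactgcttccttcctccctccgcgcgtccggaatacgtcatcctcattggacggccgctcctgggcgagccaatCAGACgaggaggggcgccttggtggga
*Ctnnd1*, downstream start: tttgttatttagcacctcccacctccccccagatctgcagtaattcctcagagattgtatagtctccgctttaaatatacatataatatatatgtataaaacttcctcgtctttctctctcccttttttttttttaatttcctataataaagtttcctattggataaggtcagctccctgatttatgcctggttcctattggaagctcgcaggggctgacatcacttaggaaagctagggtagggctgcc

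Markers of the cell types a mammary culture could hold were read in the same libraries. Of 9 luminal epithelial markers 5 were tested, and their summed level ranged from 5646 CPM in an untreated control library to 10735 CPM in a treated control library. The most abundant was *Krt18*, at 2441 to 5797 CPM. *Cldn3*, *Cldn7* and *Esrp1* had no counts in any library, and *Epcam* had 2 counts in all, so that the epithelial label of the line is borne out by keratins and E-cadherin but not by these markers. By library, the sums were 5796 and 5646 CPM in untreated and 10735 and 7826 CPM in treated control cells, and 6763 and 6411 CPM in untreated and 7642 and 10032 CPM in treated libraries labelled knockout. After TGF-β in control cells 2 luminal markers were called higher, *Krt8* by 0.65 (adjusted p = 0.0472 by edgeR, SE 0.17) and *Krt18* by 0.96 (adjusted p = 0.0295 by edgeR, SE 0.22). Both calls were lost without any one of the 4 untreated libraries or treated control library 1 (edgeR's adjusted p from 0.0933 to 0.206 and from 0.0615 to 0.1803) and with the 4 control libraries alone (0.122 and 0.0623), and that of *Krt8* with the replicate block (0.0718).

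Of 6 myoepithelial or basal markers 2 were tested. Their summed level was 64.8 and 81.3 CPM in untreated and 86.3 and 78.5 CPM in treated control libraries, and 89.1 and 112 CPM in untreated and 148 and 140.0 CPM in treated libraries labelled knockout. It was thus highest in the libraries in which *Cdh1*, *Ctnna1* and *Jup* were highest. The most abundant was *Mylk*, at 52.8 to 116 CPM, while *Krt5* and *Acta2* were at 4 and 2 counts over all libraries. *Mylk* was called higher between treated genotypes by 0.95 (adjusted p = 0.0114 by edgeR, SE 0.18), a call lost without treated knockout-labelled library 2 (0.0613). *Krt14* was called higher after TGF-β by 2.33 (adjusted p = 0.00304 by edgeR, SE 0.31) in control cells and 3.66 (adjusted p = 0.000682 by edgeR, SE 0.35) where labelled knockout. The difference between these responses was 1.33 (adjusted p = 0.497 by edgeR, SE 0.47). The part of these markers in the results for the junction genes was not tested. Sums of 7 fibroblast markers (0.797 to 4.73 CPM, led by *Col1a1*, with *Thy1* and *Lum* at 0 counts), 5 endothelial markers (0 to 0.847 CPM, led by *Cdh5*, with *Kdr* and *Emcn* at 0 counts) and 5 leukocyte markers (2.15 to 5.45 CPM, led by *Cd68*, with *Cd3e* at 0 counts) stayed below 6 CPM in all libraries.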

How the data were processed

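For these 8 libraries the authors deposited raw integer counts for each gene. Paper and sample labels differ on RNA extraction, library kit, sequencer and read layout. The paper names subjunc and removal of duplicates, and the submitters' processing notes name HISAT2, limma and mm10. How reads were assigned to genes, and whether by strand, is not given in the sources used here. The 37310 gene identifiers are those of GENCODE vM1 on NCBIM37 (mm9), which gave positions and exon lengths.

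From these counts, genes passing filterByExpr over the 4 groups (13028) were scaled with TMM factors and fitted in 1 model of the groups without a block, in edgeR 4.0.16 (R 4.3.3; glmQLFit, glmQLFTest), with p-values adjusted by Benjamini-Hochberg over all tested genes. Calls were made where the adjusted p was below 0.05 and the log2 fold change beyond 0.5 in either direction, in the interaction by adjusted p alone. The standard error is the absolute log2 fold change divided by the square root of F. The biological coefficient of variation was 0.180. Log2 CPM used a prior count of 2.

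Totals ranged from 4297832 to 13574397 counts, so the untreated libraries labelled knockout were the least precise for rare transcripts. Alternatives were RLE factors, no filter, DESeq2 1.42.0, the replicate number as a block, only the 4 libraries of a comparison, and each library left out in turn. Members and lists were chosen with earlier results of these data known. Named are all members, the targeted gene, called genes of each list (up to 4 of smallest p in a comparison, with some left out), the leading marker of each cell type, the 2 genes most like each member, and genes that overlap or adjoin one. *Tcte2*, *Ulk4* and *Ap3m1* are named for their overlap, and *Plekha7*, *Cdh16* and *Cdh24* because their values are medians of their lists. Markers other than the leading ones were named after their values were seen.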

Additional observations from a re-analysis of the deposited data

How the results depend on the processing

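Of 916 log2 fold changes of members and named called genes under the alternatives, 772 kept their direction and their side of the thresholds, 118 kept the direction but were no longer called, 2 became called and 24 changed sign. Levels per length with RLE factors stayed within 1 SD of the value given in 27 of 28 cases. With RLE factors or DESeq2 no member changed sign. A library left alone in its group was assumed to vary like the others. Without the filter, 756 genes were called between untreated genotypes (238 with it), 2021 after TGF-β in control cells (1194), 1832 in the libraries labelled knockout (889) and 211 in the interaction (0), among 20463 tested. There 3 members were called after TGF-β in the libraries labelled knockout, *Ctnnd1*, *Cdh1* (0.58, adjusted p = 0.0121) and *Vcl* (0.52, adjusted p = 0.0222). *Ctnnb1* between untreated genotypes was then at -0.00954, and the interaction of *Cdh2* at 0.0345 and of *Ctnnd1* at 0.0355. DESeq2 called 428 genes between untreated genotypes and 30 in the interaction. With the replicate number as a block 150 were called between untreated genotypes, where *Vcl* was at 0.000444. Deviations of libraries with the same number had correlations from -0.473 to 0.297 over genes, and the labels mark no batch. With only the 4 libraries of a comparison, which lowers the number of samples behind the spread, 797 genes were called between untreated genotypes, 402 between treated genotypes (1959 with all) and 483 after TGF-β in control cells, and 0 members in the latter 2. Leaving out 1 library at a time gave 41 (without untreated control library 2) to 393 (without treated control library 2) genes between untreated genotypes. Between treated genotypes it gave 486 (without treated knockout-labelled library 2) to 2788 (without treated control library 1) genes and 0 to 1 members. After TGF-β it gave 139 (without untreated control library 1) to 1479 (without treated control library 1) genes and 0 to 1 members in control cells, and 136 (without untreated knockout-labelled library 1) to 1381 (without treated control library 2) genes and 0 to 1 members in the libraries labelled knockout. In the interaction it gave 0 to 6 genes. Log2 fold changes that changed sign then ranged, between untreated genotypes, from -0.0561 to 0.41 for *Cdh1*, -0.0144 to 0.0858 for *Cdh2*, -0.0768 to 0.0526 for *Ctnna1*, -0.0583 to 0.11 for *Ctnnb1*, -0.0696 to 0.0706 for *Vcl* and -0.0354 to 0.00702 for *Mllt4*. Between treated genotypes they ranged from -0.0827 to 0.10 for *Cdh2* and -0.18 to 0.38 for *Vcl*, and after TGF-β in control cells from -0.15 to 0.32 for *Cdh1* and -0.0248 to 0.27 for *Ctnna1*. In the interaction they ranged from -0.102 to 0.0836 for *Cdh2*, -0.168 to 0.0888 for *Ctnnd1* and -0.160 to 0.40 for *Vcl*. None of the values that changed sign was called, and beyond the fewer genes or samples the cause was not tested. Depth limits *Cdh3* and other genes under the floor.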

Other observations

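With TGF-β, replicates were far apart for *Zyx* and *Src* in both genotypes, and for *Actn1* in the libraries labelled knockout only. These 3 genes of the lists were chosen here after their values were seen. *Zyx*, which encodes the LIM protein zyxin, was at 114 and 56.8 CPM in treated control libraries 1 and 2 and at 59.8 and 179.6 CPM in treated libraries 1 and 2 labelled knockout, against 31.1 to 41.4 CPM in the untreated libraries. *Src* was at 269 and 135 and then 203 and 331 CPM in the same libraries, and *Actn1* at 341 and 286 and then 367 and 538 CPM. Like *Vcl*, with 485 and 393 and then 386 and 569 CPM, all 3 were higher in treated control library 1 and in treated knockout-labelled library 2 than in the other library of the condition. Of the 67 tested genes of the lists 32 were in this order (47.8%), against 4444 of all 13028 tested genes (34.1%). *Zyx*, *Src* and *Actn1*, chosen after their values were seen, are among these 67. Over all 13028 genes the difference between libraries 1 and 2 had r = -0.473 between the treated conditions. Summed luminal markers showed the same order, at 10735 and 7826 and then 7642 and 10032 CPM.

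*Cdh5*, the cadherin of endothelial cells, had 0 counts in all 4 untreated libraries and 0.562 and 0.847 CPM in treated control libraries and 0.245 and 0.556 CPM in treated libraries labelled knockout. It did not pass the filter and was not tested, and the treated libraries are the deeper ones.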
